A study of Arabidopsis thaliana with 6 samples.

Results

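SR proteins are nuclear splicing factors that carry RNA recognition motifs and a domain rich in arginine and serine, and 10 of the Arabidopsis genes that encode them or a close relative were examined here among 26690 nuclear protein-coding genes. They were taken by locus: SR30 (AT1G09140), SR34 (AT1G02840), SC35 (AT5G64200), SCL33 (AT1G55310), RSZ21 (AT1G23860), RSZ22 (AT4G31580), RS31 (AT3G61860), RS40 (AT4G25500), RS41 (AT5G52040) and SR45 (AT1G16610). All 10 loci were present in the input tables and in both FA-CLIP site lists. The measurements came from formaldehyde crosslinking and immunoprecipitation (FA-CLIP) of ECT2, a reader of the RNA modification N6-methyladenosine, in 14-day-old whole seedlings of the Col-0 background, with 2 libraries in each of 3 groups. FA-CLIP libraries held RNA pulled down with anti-FLAG M2 magnetic beads from transgenic plants labelled ECT2:ETC2-Flag/ect2, which carry a FLAG-tagged ECT2 in the ect2 T-DNA insertion mutant, and the labels do not say how many transgenic lines were used. Mock libraries held RNA pulled down with the same beads from wild-type plants, which carry no tag. Input libraries held RNA of the tagged plants without a pull-down. Plants of every group were fixed with formaldehyde. The labels do not say whether replicates came from separate cultures of seedlings, so p-values measure the spread between these libraries, which may be technical.

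SR proteins bind pre-mRNA, help to define splice sites and recruit the U1 and U2 particles of the spliceosome. Their own pre-mRNAs are known in plants for extensive alternative splicing, in which some isoforms carry a premature stop codon. ECT2 binds N6-methyladenosine in mRNA, and the modification is known to lie mostly in 3' UTRs. The site lists allow the exonic and the intronic parts of SR transcripts to be compared.

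The FA-CLIP lists held 41707 and 41471 sites with 901178 and 830355 conversion events in replicates 1 and 2. The mock lists held 3440 and 3848 sites with 489805 and 653262 events. Conversion events are the authors' count per site, and the labels and headers do not say which base change they count. The smallest listed site has 2 events, so a gene without a listed site is not shown to be free of reads. The depth behind the input values is unknown. ECT2 itself, the tagged gene, had 86 and 78 events in FA-CLIP and no listed site in the mock, and 72.1 and 74.9 FPKM in the input. The leaf genes RBCS1A and RCA had 5371 and 1483 FPKM in input replicate 1 and the root endodermis gene CASP1 had 13.3 FPKM, so shoot and root RNA were both present, in keeping with the label.

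Sites of the 10 SR genes lay above all in 3' UTRs. The following lines give 30 bases from the reproducible site with the most events in each gene, that is, from overlapping sites of both FA-CLIP libraries joined into 1. They are from the RefSeq assembly TAIR10.1, 5' to 3' on the gene's strand. Capitals mark the letters TGTA (UGUA in RNA), letters described around ECT2-bound m6A sites.
SR30 (chr1:2942595-2942624, minus strand): acattacaactactggtgtcttttatgatt
SR34 (chr1:629636-629665, plus strand): aaaacaaattctactttcttgaagtggatt
SC35 (chr5:25681673-25681702, minus strand): TGTAtctttgtttcctgttatcgttctggt
SCL33 (chr1:20632838-20632867, plus strand): gaacatggtactgttattataagttcttta
RSZ21 (chr1:8427967-8427996, minus strand): tggtattagctcttctaggtttggttgttg
RSZ22 (chr4:15308272-15308301, plus strand): cgtaccctagtttcttaaagacataatgtt
RS31 (chr3:22900121-22900150, minus strand): cgctttgtcacgatctgttacttggttcat
RS40 (chr4:13027346-13027375, plus strand): gattcgaactcggatcacttttattgtcgg
RS41 (chr5:21133399-21133428, plus strand): ttttgctatgtcaTGTAgtatttagtgtgt
SR45 (chr1:5675719-5675748, minus strand): tggatctcctcattagatgcaacgataatg
All 10 stretches lie in a 3' UTR of at least 1 annotated transcript. Their midpoints were 67 nt past the stop codon in SR34, 95 nt in RS41, 110 nt in RSZ21, 117 nt in RS40, 157 nt in SCL33, 162 nt in SC35, 176 nt in RS31, 192 nt in SR45, 222 nt in RSZ22 and 278 nt in SR30. Within that reproducible site, each was centred on the overlap of the listed sites, 1 per library, with the highest summed events. In RSZ21 these listed sites had 14 and 21 events, while another reproducible site, at 8427874 to 8427919, had 22 and 24. Of the 30 bases of the SC35 stretch, 27 lay within its reproducible site. TGTA was in the SC35 and RS41 stretches, and in the SC35 stretch it ran across the edge of the site.

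FA-CLIP was set against the mock to ask whether SR mRNAs were held by the beads without the tagged protein. All 10 genes had sites in both FA-CLIP libraries, and none had a site in either mock library. Events in FA-CLIP were higher than in the mock for all 10 by edgeR's quasi-likelihood test, with adjusted p between 8.4e-09 and 1.51e-06. Of the 5136 genes tested, 88.5% were higher in FA-CLIP by the same rule, so the share of SR genes was near that of all tested genes. Each SR gene passed the filter on low counts through its FA-CLIP events alone. Both FA-CLIP libraries lay above both mock libraries in 34.3% of all nuclear protein-coding genes, and 4.11% of them had a site in either mock library. No fold change is given, because the mock lists hold no value for these genes. The test rests on the spread between the FA-CLIP libraries, since the mock values had none: without FA-CLIP replicate 1 the count of called SR genes fell to 5 of 10, and without FA-CLIP replicate 2 to 0 of the 9 that were tested (edgeR, adjusted p from 0.0552 to 0.168), of which 8 had an unadjusted p under 0.05. Over all genes, fewer were also called when either FA-CLIP library was left out. DESeq2, run with all libraries, called all 10 higher, with adjusted p from 0.00164 to 0.0321, and 3483 of the 5136 genes tested. In edgeR the estimate of spread is also shared across genes, so an adjusted p does not measure the spread of 1 gene alone. By that test SR30, with 45 and 101 events, had an adjusted p of 5.62e-08, and RSZ21, with 73 and 67, had 5.05e-08. These limits hold for every edgeR adjusted p of a single gene given below. In both FA-CLIP libraries together the 10 genes gave 60 sites with 543 events in replicate 1, 0.0603% of its events, and 66 sites with 708 events in replicate 2, 0.0853%.

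**Figure D1:**
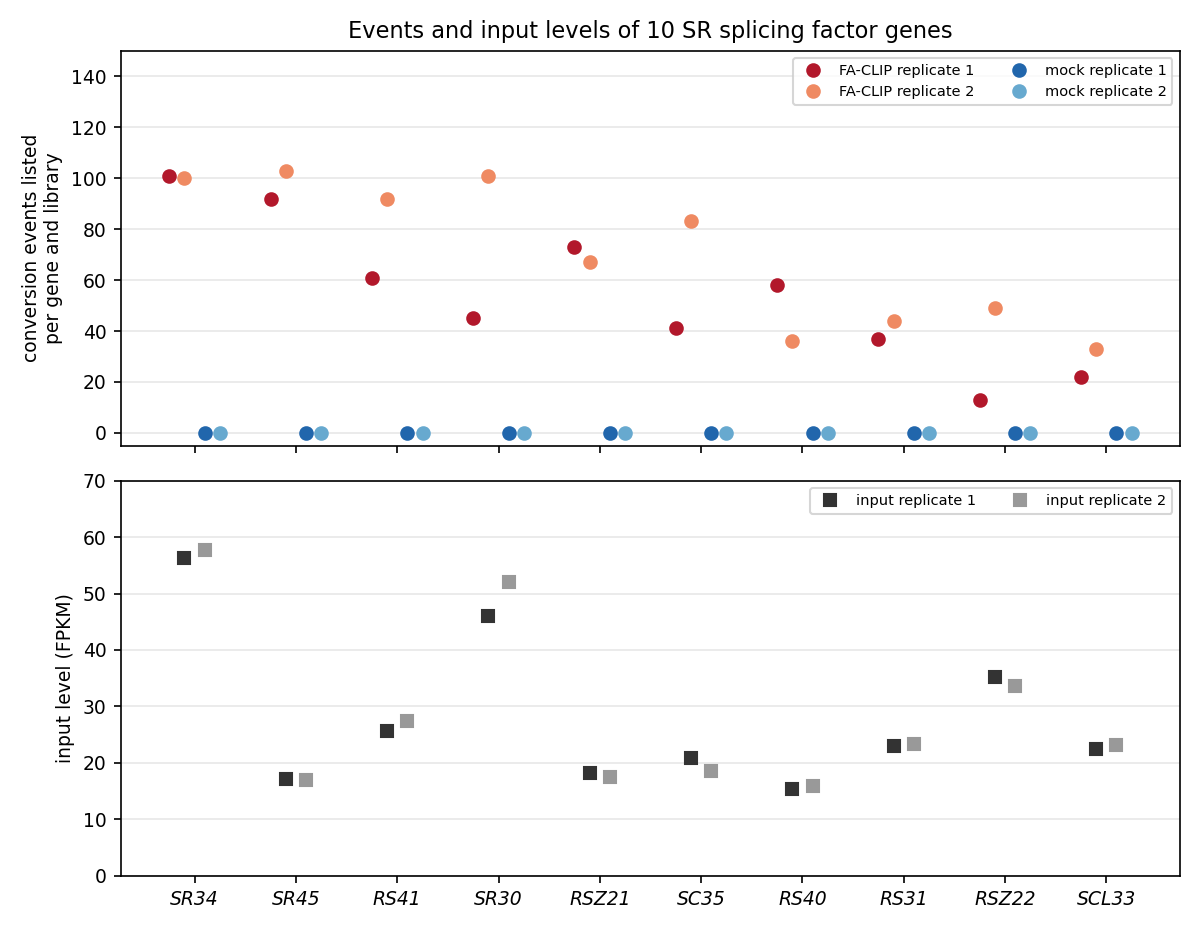
Conversion events listed per gene (upper panel) and input level in FPKM (lower panel) for each of the 10 SR genes, 1 point per library. FA-CLIP points run from 13 to 103 events, every mock point is at 0 because no site is listed, and the input order of the genes is not the order of their events.

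SR30 and SR34 belong to the SR subfamily proper, the plant counterparts of human SRSF1, with a pair of RNA recognition motifs. SR34 had 101 events in FA-CLIP replicate 1 and 100 in replicate 2, the most of the 10 genes on average (100.5 ± 0.707, SD, n = 2), with no mock site (adjusted p = 8.4e-09). Its replicates were nearly equal. SR30 had 45 and 101 events in FA-CLIP (73 ± 39.6), with no mock site (adjusted p = 5.62e-08), so its replicates differed by more than the whole level of replicate 1. SR34 (chromosome 1, 626639 to 629993, plus strand) also had the highest input level of the 10, with 56.4 and 57.7 FPKM, followed by SR30 (chromosome 1, 2942538 to 2945976, minus strand) with 46.1 and 52.0 FPKM. Both are thus the most abundant of the set in whole seedlings, where fewer cells of a type and less RNA per cell cannot be told apart.

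The sites of both SR-subfamily genes were concentrated past the stop codon. A reproducible site here means overlapping sites of both FA-CLIP libraries, joined, with at least 1 nt of overlap. In SR34 a reproducible site at chromosome 1, 629592 to 629704, had 51 events in replicate 1 and 43 in replicate 2, and a second at 629753 to 629784 had 36 and 28. Its other reproducible sites were a pair in coding sequence with 2 or 3 events per library. By any annotated transcript SR34 listed 6 coding sites in replicate 1 and 3 in replicate 2, the most of the 10 genes, yet the 3' UTR took 86.1% and 93% of its events. In SR30 the main reproducible site, 142 nt wide at 2942569 to 2942710, had 34 and 59 events and joined 3 sites of replicate 1 with 5 of replicate 2. A second SR30 site 105 nt past the stop codon had 8 and 15 events, and a 5' UTR site had 3 and 2.

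SC35, the counterpart of human SRSF2, and SCL33, a plant SC35-like protein with an added N-terminal extension, had fewer events. SC35 (chromosome 5, 25681202 to 25683641, minus strand) had 41 and 83 events in FA-CLIP (62 ± 29.7, SD, n = 2), with no mock site (adjusted p = 1.1e-07). SCL33 (chromosome 1, 20629698 to 20633007, plus strand) had 22 and 33 (27.5 ± 7.78), the lowest mean of the 10, with no mock site (adjusted p = 5.82e-07). Their inputs were close to each other, at 20.9 and 18.5 FPKM for SC35 and 22.5 and 23.2 FPKM for SCL33. At a slightly higher input, SCL33 thus had less than SC35 in each FA-CLIP library. SC35 held a pair of reproducible sites, both in its 3' UTR, of which the stronger had 29 and 49 events at 25681614 to 25681699. SCL33 held 3 reproducible 3' UTR sites with 3 to 15 events in replicate 1 and 5 to 17 in replicate 2.

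RSZ21 and RSZ22 carry a zinc knuckle beside the RNA recognition motif and are the counterparts of human SRSF7. RSZ21 (chromosome 1, 8427257 to 8429498, minus strand) had 73 and 67 events in FA-CLIP (70 ± 4.24, SD, n = 2), with no mock site (adjusted p = 5.05e-08). RSZ22 (chromosome 4, 15306544 to 15309035, plus strand) had 13 and 49 (31 ± 25.5), with no mock site (adjusted p = 1.51e-06), the least even replicates of the 10. The input ran the other way, with 35.2 and 33.5 FPKM for RSZ22 and 18.3 and 17.5 FPKM for RSZ21. RSZ21 thus had more events in each FA-CLIP library at the lower input. These genes also have the longest annotated 3' UTRs of the set, 834 nt in RSZ21 and 971 nt in RSZ22. Their listed 3' UTR sites began no closer than 48 and 28 nt to the stop codon, and ended by 384 nt past it in RSZ21 and by 261 nt in RSZ22. The distal part of both 3' UTRs, as annotated in the transcript with the longest coding sequence, held no listed site. RSZ21 had 5 reproducible sites, more than any other of the 10, of which 4 lay in the 3' UTR and 1 in coding sequence.

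RS31, RS40 and RS41 form the plant-specific RS subfamily. RS41 (chromosome 5, 21130320 to 21133709, plus strand) had 61 and 92 events in FA-CLIP (76.5 ± 21.9, SD, n = 2), with no mock site (adjusted p = 3.43e-08). RS40 (chromosome 4, 13024498 to 13027484, plus strand) had 58 and 36 events (47 ± 15.6), with no mock site (adjusted p = 2.99e-07). RS31 (chromosome 3, 22900050 to 22902395, minus strand) had 37 and 44 events (40.5 ± 4.95), with no mock site (adjusted p = 3.82e-07). RS41 had the most on average, and RS40 and RS31 changed order between the replicates. Input levels were 25.6 and 27.4 FPKM for RS41, 22.9 and 23.3 for RS31 and 15.3 and 15.9 for RS40, the lowest of the 10. All listed sites of RS31 lay in its 3' UTR, where 5 sites of replicate 1 and 4 of replicate 2 joined into 1 reproducible site of 159 nt at 22900096 to 22900254. RS41 held 3 reproducible sites in the 3' UTR, with 26 and 57, 14 and 26, and 6 and 4 events, and a 5' UTR site with 6 and 3. In RS40 a site that begins at the last base of the stop codon, 13027243 to 13027300, had 24 events in replicate 1 and 3 in replicate 2, while its neighbour at 13027340 to 13027401 had 30 and 26. The replicates of RS40 thus differed mainly at the first of these sites.

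SR45 is an SR-like protein with an arginine- and serine-rich domain on each side of its RNA recognition motif, and it binds U1-70K of the U1 particle. SR45 (chromosome 1, 5675495 to 5678873, minus strand) had 92 and 103 events in FA-CLIP (97.5 ± 7.78, SD, n = 2), with no mock site (adjusted p = 9.28e-09). Its input was among the lowest, at 17.2 and 17 FPKM. SR45 thus had nearly as many events as SR34 at a much lower input. Its 4 reproducible sites stood between 5675698 and 5675907, with 34 and 57, 28 and 5, 20 and 32, and 6 and 3 events. The site with 28 and 5 events differed most between replicates. In the transcript with the longest coding sequence the 3' UTR is annotated with 77 nt, and the first pair of these sites lies beyond its end but inside the 3' UTR of other SR45 transcripts.

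The order of input levels was stable between the input libraries. From the highest to the lowest mean it ran SR34, SR30, RSZ22, RS41, RS31, SCL33, SC35, RSZ21, SR45 and RS40, from 57.0 to 15.6 FPKM. The ranges of neighbours overlapped only between RS31 and SCL33. RS40, the lowest, was still above 85.7% of nuclear protein-coding genes in mean input. The locus AT2G01021 alone held 33.4% of all FPKM in the first input library and 57.5% in the second, yet the FPKM of the SR genes differed little between these libraries.

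To set events against abundance, a recovery score was computed: mean events in FA-CLIP, with 1 added, were divided by the product of mean input FPKM and transcript length in kb, and the ratio was put on the log2 scale. Length was that of the transcript with the longest coding sequence. In SR45, 2 reproducible sites lie beyond the end of that transcript, and their events were counted. SR45 had the highest score of the 10, at 1.92, above 96.3% of 16960 scored genes, and above 97.3% without division by length. RSZ21 followed with 1.27, RS40 with 1.09, RS41 with 1.04 and SC35 with 0.99. RS31 had 0.58, SR34 had 0.23, SR30 had 0.20 and SCL33 had -0.02. RSZ22 had the lowest, -0.96, just under the median of all scored genes, -0.94. The median of the 10 was 0.79. SR45, RSZ21, RS40, RS41, SC35, RS31, SR34, SR30 and SCL33 were thus above the median gene. RSZ22 was close to it, at the 49.7th percentile, and its side was not stable: it was above 61.4% of scored genes without FA-CLIP replicate 1 (score -0.32) and above 28.6% without replicate 2 (score -2.15).

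The scores were then set beside genes of similar abundance. Among the 2802 nuclear protein-coding genes with a mean input from 15.6 to 57.0 FPKM, the range of the SR genes, the median score was -0.18 with quartiles at -1.80 and 0.90. SR45, RSZ21, RS40, RS41 and SC35 were above the upper quartile, and SR45 was above 93.1% of these genes. With 1 FA-CLIP library left out, SR45 and RSZ21 kept scores of at least 1.84 and 1.21. RS40 had 0.71 without replicate 1, RS41 had 0.71 without replicate 2 and SC35 had 0.41 without replicate 2. These scores of RS40, RS41 and SC35 were below the quartile printed here, which was computed from both libraries. In the same settings they were above 80.9%, 85.0% and 80.2% of all scored genes, against 88.6%, 87.7% and 87.1% with both libraries. SR30 had 0.66 without replicate 1 and -0.49 without replicate 2. SCL33, at 53.5%, SR30, at 58.5%, SR34, at 59.3%, and RS31, at 67.6%, were nearer the middle, and RSZ22 was above only 36.1%. Input and precipitates were made with different library kits and in different units, so no test of a change was made. Spearman's rho between events and input was 0.19 over the 10 genes, a description only, since the genes share their libraries.

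**Figure D2:**
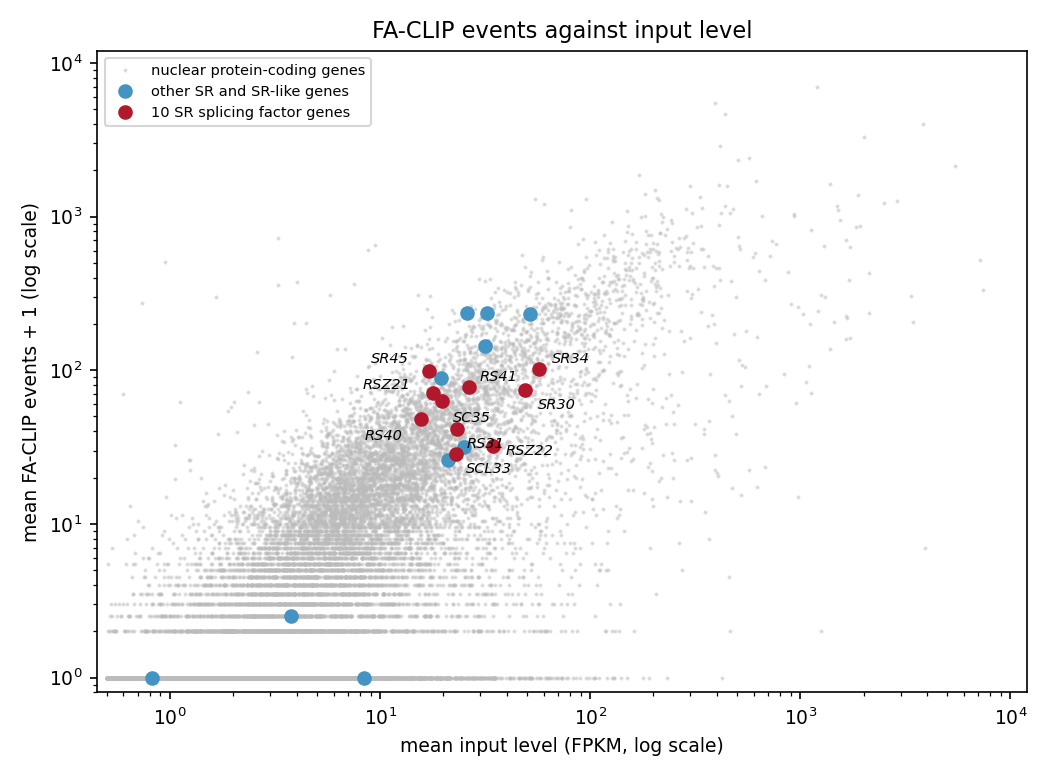
Mean FA-CLIP events plus 1 against mean input level, both on log scales, for nuclear protein-coding genes from 0.5 to 10000 FPKM (grey), the 10 SR genes (red) and the other SR and SR-like genes (blue). The red points span 27.5 to 100.5 mean events between 15.6 and 57.0 FPKM, and SR45 has more events than RSZ22 at the lower input.

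**Figure D3:**
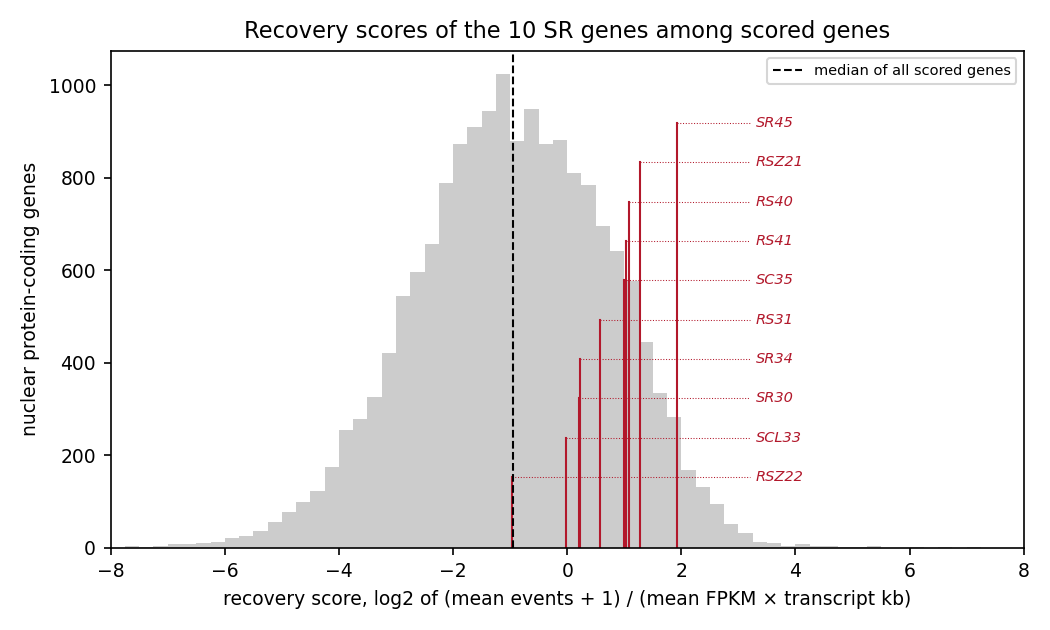
Histogram of the recovery score over 16960 nuclear protein-coding genes of 1 FPKM or more, with a red line at the score of each SR gene (line height only separates the names) and a dashed line at the median of all scored genes. The scores run from -0.96 in RSZ22 to 1.92 in SR45.

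Replicate agreement differed among the 10 genes. Scaled to the listed total of each library, replicate 2 exceeded replicate 1 in 8 genes, by a log2 ratio of 0.10 in SR34 and up to 2.03 in RSZ22. RSZ21 was level at -0.01, and RS40 was lower in replicate 2, at -0.57. Across 2968 nuclear protein-coding genes with at least 30 mean events the median log2 ratio was 0.35, with quartiles at -0.05 and 0.76, so most of these genes were higher in replicate 2 as well. RSZ22 lay above the 95th percentile of these genes, 1.31, and SR30 and SC35, at 1.28 and 1.14, lay just below it. The 5th percentile was -0.74, and RS40 was the nearest of the 10 to it. The means of RSZ22, SR30, SC35 and RS40 are therefore among the least certain of the set.

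Sites of the SR genes came back in the same places in both libraries about as often as sites in other mRNAs. Of the 60 sites of FA-CLIP replicate 1, 45 overlapped a site of replicate 2, or 75%, against 64.7% of all sites in nuclear protein-coding genes. Of the 66 sites of replicate 2, 45 overlapped a site of replicate 1, or 68.2%, against 66.6%. Joined, they gave 30 reproducible sites, at least 1 in each of the 10 genes. Among all nuclear protein-coding genes 31.5% had a reproducible site, and in the input range of the SR genes 81.7% did, so the share of SR genes is not far from that of genes of similar input. With a required overlap of 50% of both sites, 21 reproducible sites remained, still in all 10 genes.

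The position of these sites was close to that of other mRNAs. By the transcript with the longest coding sequence, 23 of the 30 reproducible sites lay in the 3' UTR, or 76.7% (95% exact interval 57.7 to 90.1, counting error only), against 71.6% of 20519 sites in all nuclear protein-coding genes. Coding sequence held 3 sites, in SR34 and RSZ21, the 5' UTR held 2, in SR30 and RS41, and 2 sites of SR45 lay past the end of that transcript. By any annotated transcript, and by the deposited label, the 3' UTR held 25 of the 30. The density was 5.40 sites per kb of 3' UTR and 0.337 per kb of coding sequence in the SR genes, and 5.60 and 0.422 in all genes with a reproducible site. In events, the 3' UTR of any annotated transcript took 91.7% and 96.6% in the SR genes in FA-CLIP replicates 1 and 2, and 80.6% and 90.2% in all nuclear protein-coding genes. The sites of 1 gene share their source, so these shares carry no test. By any annotated transcript, coding sites of the SR genes had at most 4 events each, in SR34, and they numbered 15 in replicate 1 and 8 in replicate 2. By the transcript with the longest coding sequence they numbered 15 and 10, and the largest had 8 events, again in SR34.

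No listed FA-CLIP site of the 10 genes had its midpoint in an intron. The introns of the transcripts with the longest coding sequence add up to 13.5 kb in the 10 genes, against 4.26 kb of 3' UTR and 8.90 kb of coding sequence. In all nuclear protein-coding genes introns held 1.68% and 1.80% of the sites of FA-CLIP replicates 1 and 2. With 60 and 66 sites in the SR genes, an intron share of that size would be about 1 site per library and was not detectable at this depth. SR34 had a site of 8 events in replicate 2 within the coding sequence of its longest isoform, 260 to 271 nt before the stop codon, that falls in the 3' UTR of another isoform, and replicate 1 did not list it.

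The 23 reproducible 3' UTR sites of the SR genes had midpoints at a median of 127 nt past the stop codon (quartiles 90.5 and 194), and 14696 such sites of all nuclear protein-coding genes had a median of 117 nt (67 and 174). They were wider, with a median of 62 nt against 49 nt, and had a median of 16.5 mean events against 9. These comparisons take sites of genes of any input level, and none was made at the input range of the SR genes. In 8 of the 10 genes the farthest listed 3' UTR site ended between 195 and 318 nt past the stop codon. The exceptions were RSZ21, with 384 nt in replicate 1, and SC35, with a site in replicate 2 that ended at 557 nt.

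**Figure D4:**
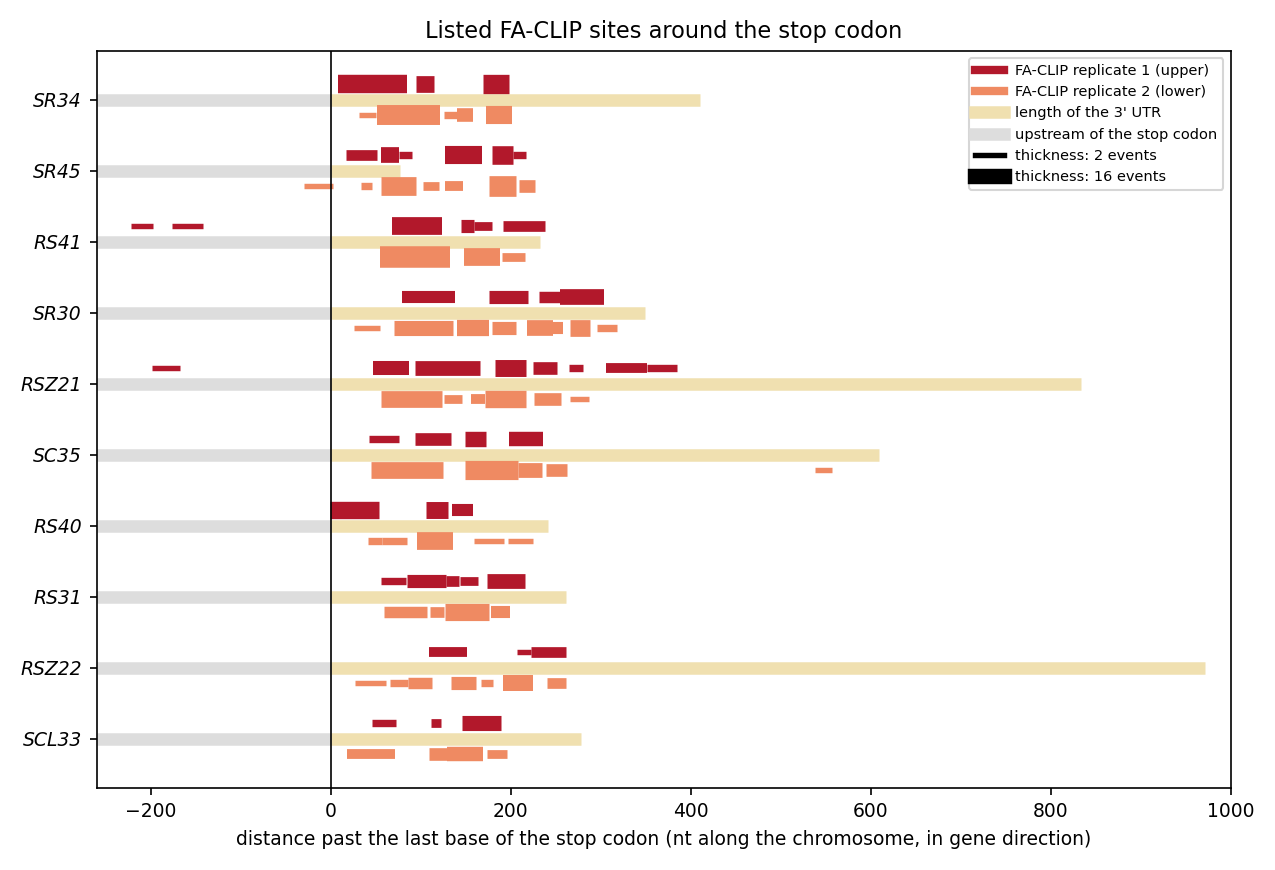
Listed sites of FA-CLIP replicate 1 (dark red, above each bar) and replicate 2 (orange, below it) by distance from the stop codon in nt along the chromosome, 1 row per SR gene, with bar thickness rising with the log2 of events and the 3' UTR of the transcript with the longest coding sequence in yellow and sequence before the stop codon in grey; sites beyond the left edge are not drawn. Sites crowd between the stop codon and 318 nt past it in nearly every gene, also in RSZ21 and RSZ22, whose 3' UTRs extend to 834 and 971 nt, and the SR45 sites run past its 77 nt.

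Short sequences known from ECT2 or m6A sites were searched on the gene's strand in 30-base windows centred like the stretches printed above. TGTA was in 8 of the 30 windows of the SR genes, or 26.7% (95% exact interval 12.3 to 45.9, counting error only). It was in 21.8% of windows of the same length at 20519 reproducible sites, and in 26.2% at the 14696 of these in 3' UTRs. Over the whole sites TGTA was in 26.7% of those of the SR genes (95% exact interval 12.3 to 45.9, counting error only). It was in 33.2% of all whole sites and in 40.3% of those in 3' UTRs, both inside that interval. GGAC, a core of the m6A consensus, was in 1 window, of the SR30 site 105 nt past the stop codon, against 4.54% of all. AAAC was in 3 (10% against 14.6%), and TTTTT in 3 (10% against 14.3%). TGTA can share its last base with AAAC and its first with TTTTT. All 4 window shares of all sites lay inside the intervals of the SR genes (0.0844 to 17.2 for GGAC and 2.11 to 26.5 for AAAC and for TTTTT), so no difference from other mRNAs was detectable with 30 sites. Among the windows with TGTA were 2 in SC35, 2 in SR45 and 1 each in SR30, RS40, RS41 and SCL33, and the windows of SR34, RS31, RSZ21 and RSZ22 held none. All 30 windows occurred once in the genome, so copies in paralogous SR genes do not share these exact stretches.

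The other SR and SR-like genes of Arabidopsis gave a wider spread of events. Of 10 such genes, 7 had sites in both FA-CLIP libraries and a reproducible site, and these 7 passed the filter and were higher in FA-CLIP than in the mock (edgeR, adjusted p from 1.55e-09 to 8.75e-07), as were 88.5% of all genes tested. All 7 passed the filter through their FA-CLIP events. Of them, 5 had no mock site, and the mock events of RS2Z33 and SCL30 were too few to pass it. Fewer of the 7 were called with either FA-CLIP library left out, as over all genes. RS2Z32, a zinc-knuckle SR protein with a pair of knuckles, had 251 and 218 events at 32.7 and 31.9 FPKM, a mean of 234.5. SR34a, a relative of SR34, had 133 and 335 events, a mean of 234, so these genes cannot be ranked. RS2Z33, the paralogue of RS2Z32, had 241 and 223 events in FA-CLIP and 2 and 0 in the mock. SCL30 had 166 and 120 in FA-CLIP and 0 and 2 in the mock. SR34b had no FA-CLIP site at 7.20 and 9.60 FPKM, nor had SCL28 at 0.943 and 0.689 FPKM. RS31a had 3 events in replicate 2 and no site in replicate 1, at 3.82 and 3.71 FPKM. The median recovery score of the 9 with a score was 1.85, with a range from -3.70 to 2.45. The median was 0.79 for the 10 SR genes above and -0.94 for all scored genes. SCL28, under 1 FPKM, had no score.

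Genes for splicing partners of SR proteins and for kinases that phosphorylate them had mostly lower levels. Of 11 such genes, 10 had a reproducible site, none had a mock site, and 6 passed the filter, all 6 of them higher in FA-CLIP (edgeR, adjusted p from 2.94e-09 to 4.37e-07), and 5 of the 6 with DESeq2. Of all 5136 genes tested 88.5% were higher with edgeR, and 3483 with DESeq2. These 6 passed the filter through FA-CLIP alone. The count called fell to 3 of 7 tested without FA-CLIP replicate 1 and to 1 of 6 without replicate 2. PTB3, a polypyrimidine tract-binding protein, had the most, 147 and 144 events at 14.9 FPKM in input replicate 1. AFC1, an SR protein kinase gene of the LAMMER type, had no FA-CLIP site at 5.59 and 5.42 FPKM. The median recovery score of these 11 genes was -0.46, with a range from -3.52 to 2.39.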

How the data were processed

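The deposited FA-CLIP and mock files give, per the file headers, a count (ConversionEventCount) for every called site of a transcript. The deposited input tables pair each gene with 1 value, read as FPKM from the header layout and the values. Adapter trimming with cutadapt, alignment tool Bowtie and the build TAIR10 are named without version in the submitters' processing notes. The site caller, the counter, the annotation and the treatment of multiply mapped reads are not named in the labels or headers. RefSeq TAIR10.1 gave regions and sequences: 97.5% of deposited labels matched one of its transcripts at the midpoint of the site, and 25.3% of sites ended in G, where RNase T1 cuts, against 17.7% G overall.

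Sites repeated under several transcripts of a gene entered its sum once. Listed events per gene were tested with edgeR 4.0.16 (R 4.3.3, quasi-likelihood, two-sided, library size the total of listed events, filterByExpr, Benjamini-Hochberg over 5136 genes, threshold 0.05), FA-CLIP over mock. An exact permutation test of 2 against 2 libraries cannot go below p = 0.333. DESeq2 1.42.0 and other settings were alternatives. Unlisted genes entered as 0. The fit was tested on simulated data.

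The SR genes and all lists were chosen with earlier results of these data known. By rule, the text names all 10 SR genes and, of the 2 other lists, the genes with the most and the fewest events, with mock events or without a reproducible site. Python 3.11.15, numpy 2.4.6, scipy 1.17.1 and matplotlib 3.10.9 were used.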

Additional observations from a re-analysis of the deposited data

How the results depend on the processing

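All 10 SR genes stayed called higher in FA-CLIP than in the mock with TMM, with DESeq2, without the filter, with the replicate block and without either mock library, and their count ranged from 0 to 10 when each library was left out in turn. With the block the largest adjusted p of the 10 was 0.00965 and 4424 genes were called higher, so it changed no call of an SR gene. Same-numbered libraries did not deviate together (correlation 0.022 over 5136 genes). With only the difference between the replicates of each group to compare, this cannot show whether they were prepared as pairs. Over all genes 4545 were called higher and 154 lower. Without the filter 7958 were higher, and with 1 library left out the count ranged from 677 to 5895. The lower calls numbered 283 with TMM and 527 with DESeq2, and ranged from 42 to 136 with 1 library left out. TMM moved the median log2 fold change of all genes by -0.27 and DESeq2 by -3.46. With no mock events, the direction of the SR genes could not turn. Reproducible sites in the SR genes numbered 30, 21 with 50% overlap and 19 among sites above the median number of events, and all 10 genes kept at least 1 in each setting. A reproducible site needs both FA-CLIP libraries, so none could be left out there. Their 3' UTR share ranged from 76.7% to 83.3%. Rescaling the input raised every level. Leaving out length raised the recovery score of SR34 to 0.83 and of SR45 to 2.53, but the median of all genes rose too, to -0.20 against -0.94, and the percentile of SR34 was 72.1 against 74.3. RSZ22 was above 55.1% of scored genes with a pseudocount of 0.5 and 52.4% without length. The site lists begin at 2 events and the mock lists are short, which limits every statement on a gene without a mock site.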
